A study of Arabidopsis thaliana with 6 samples.

Results

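Transcript levels of cytoskeleton genes from 4 groups were compared between actin2-5 and wild-type seedlings of Arabidopsis thaliana. The groups were the tubulins, the MAP65 microtubule-binding proteins, the formins and the AIP1 genes. The listed genes numbered 35, comprising 7 tubulins, 9 MAP65 genes, 17 formins and 2 AIP1 genes, and were chosen by symbol or locus. A probe set assigned to 1 gene was found for 17 of them, out of 13356 genes with such a probe set and 22746 probe sets tested. The 17 were all 7 tubulins, 7 formins, both AIP1 genes and 1 MAP65 gene, MAP65-6. The other 18 genes, 8 MAP65 genes and 10 formins, have no probe set named here and were not analysed here.

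The samples were 3 whole-seedling RNAs of the actin2-5 mutant, named wavy in the titles, and 3 of the wild type, labelled as ecotype Columbia. The mutant's ecotype is not given in the labels. All plants grew for 8 days on Murashige and Skoog medium of reduced strength, and each RNA was hybridised to 1 Affymetrix ATH1 array. The design calls the 3 samples of each genotype biological replicates. The mutant is 1 allele of 1 actin gene, so every difference below is that of this line. Actin is the protein of the thin filaments that position growth and transport in plant cells, and ACT2 is one of its vegetative genes. ACT2 has 0 probe sets named here, so the genotype labels were not checked by the mutated gene.

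Microtubules are hollow polymers of α- and β-tubulin that guide cellulose synthesis at the plasma membrane and build the spindle and the phragmoplast, the structure that lays down the new wall in cell division. MAP65 proteins bind microtubules, and several of them cross-link neighbouring microtubules into bundles. Formins start and elongate actin filaments, and several plant formins also bind microtubules. AIP1 proteins work with actin-depolymerising factors to take filaments apart. Transcripts of these genes are read here, not the filaments themselves.

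No gene of the 4 groups was called in actin2-5 against wild type. Of the 17 measured genes, 0 passed limma at a Benjamini-Hochberg adjusted p under 0.05, against 3.3% of all probe sets, and their adjusted p ran from 0.29 to 0.983. At an unadjusted p under 0.05 stood 1 of 17 (5.88%), MAP65-6, against 15.3% of all probe sets. The 2 genotypes did not overlap in 1 of 17 genes, again MAP65-6, against 19.2% of all probe sets. The log2 changes, actin2-5 minus wild type, lay between -0.23 and 0.17, with 11 above and 6 below 0. Their median was 0.03, against -0.03 over all probe sets, and the median size of the change was 0.07 against 0.093. In whole seedlings, fewer cells of a type and less RNA per cell cannot be told apart.

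The precision of 3 arrays a group sets what these missing calls cover. The 95% intervals of the 17 genes, each taken alone, ran from 0.735-fold at the lowest bound to 1.34-fold at the highest. All 17 lay within 1.5-fold in either direction, as did 92.1% of all probe sets. With the standard errors found, a change had to reach 0.33 to 0.56 on the log2 scale, 1.26- to 1.47-fold, to be called. Smaller changes would have gone without a call. RMA, the authors' normalization, pulls weak signals together, so these folds are on its compressed scale.

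Among the 7 tubulin genes, 4 lay above and 3 below wild type, with a median log2 change of 0.04. Limma called 0 of 7, against 3.3% of all probe sets. At an unadjusted p under 0.05 there were also 0 of 7, against 15.3% of all probe sets. Counts over so few genes say little about the group. The mean of their changes, -0.0067, had the other sign, and leaving out 1 array moved the median to between -0.0517 (wild-type replicate 2) and 0.0917 (actin2-5 replicate 3). The 2 α-tubulin genes were TUA1, best known for its expression in pollen, and TUA6, a broadly expressed isotype. TUA1 read 8.22, 8.23 and 8.30 in actin2-5 replicates 1, 2 and 3 and 8.38, 8.24 and 8.47 in wild type. Its mutant values sat low and close together, yet wild-type replicate 2 fell among them. The log2 change was -0.11 ± 0.09 (SE, n = 3 per group; limma adjusted p = 0.609).

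TUA6 read 11.81, 11.62 and 11.55 in actin2-5 and 11.63, 11.67 and 11.57 in wild type. Mutant replicate 1 was the highest of the 6 arrays and mutant replicate 3 the lowest, so the mutant spanned the whole wild-type range. Its log2 change was 0.04 ± 0.09 (limma adjusted p = 0.901). A probe set shared by the α-tubulin genes TUA3 and TUA5, which belong to no count here, was at 0.03 ± 0.08 (limma adjusted p = 0.92). Tubulin genes are closely related in sequence, and cross-reaction between their probe sets was not tested.

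**Figure D1:**
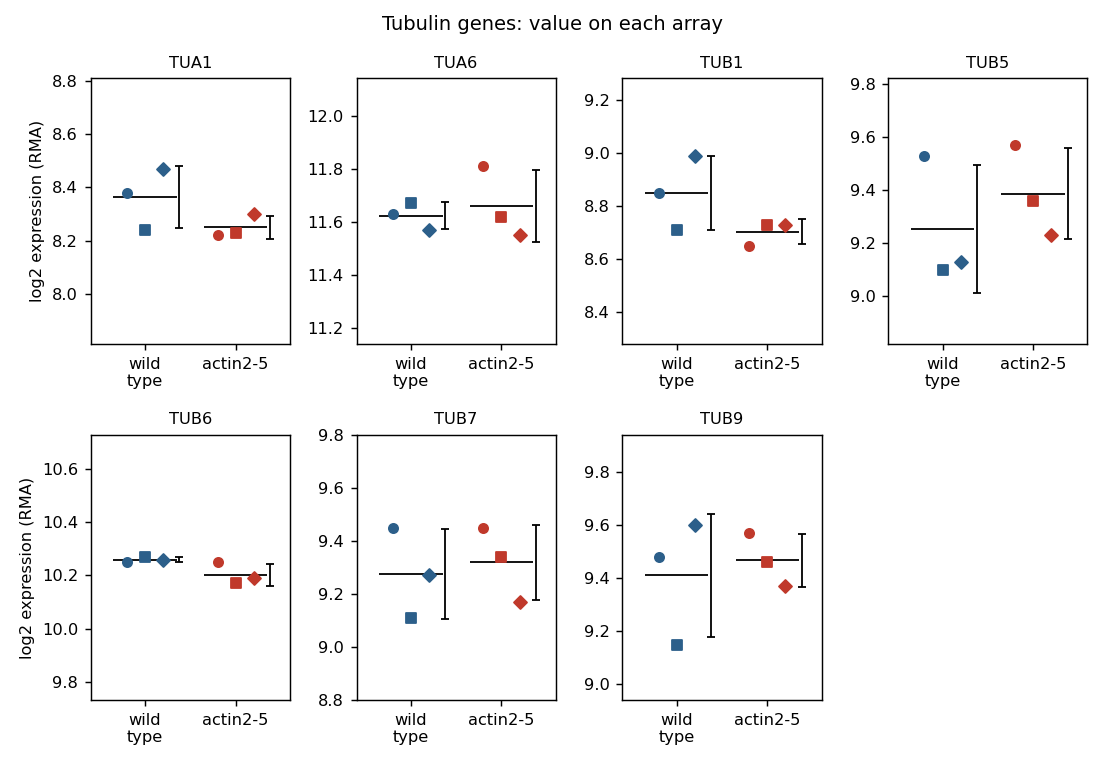
Log2 RMA expression of 7 tubulin genes on each array, wild type in blue and actin2-5 in red. Circles, squares and diamonds are replicates 1, 2 and 3, horizontal lines are group means, bars beside them are 1 SD (n = 3), and every panel spans the same number of log2 units. The genotypes overlap in all 7 panels, TUB6 is nearly flat, and wild-type replicate 2 is lowest for TUB5, TUB7 and TUB9.

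The largest change among the tubulins was that of TUB1, a β-tubulin gene known for expression in roots. It read 8.65, 8.73 and 8.73 in actin2-5 and 8.85, 8.71 and 8.99 in wild type. The mutant mean of 8.70 ± 0.05 lay under the wild-type mean of 8.85 ± 0.14 (SD, n = 3), and wild-type replicate 2 again lay within the mutant range. The log2 change was -0.15 ± 0.09, with a 95% interval of -0.35 to 0.06 (limma adjusted p = 0.513).

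TUB5, TUB7 and TUB9, also β-tubulin genes, lay slightly above wild type. TUB5 read 9.57, 9.36 and 9.23 in actin2-5 and 9.53, 9.10 and 9.13 in wild type. Replicate 1 was the high array in both genotypes, and the wild-type SD of 0.24 was larger than the difference of 0.13 ± 0.13 (SE; limma adjusted p = 0.701). Leaving out actin2-5 replicate 1 gave 0.0417 and leaving out wild-type replicate 1 gave 0.2717, the extremes with 1 array left out. Its interval with all arrays, -0.16 to 0.42, reached highest among the 17 genes.

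TUB7 read 9.45, 9.34 and 9.17 in actin2-5 and 9.45, 9.11 and 9.27 in wild type. Replicate 1 gave the same value in both genotypes, and the log2 change was 0.04 ± 0.11 (limma adjusted p = 0.903). TUB9, a gene known from pollen, read 9.57, 9.46 and 9.37 in actin2-5 and 9.48, 9.15 and 9.60 in wild type. The wild-type arrays enclosed all mutant values, and the log2 change was 0.06 ± 0.12 (limma adjusted p = 0.879). TUB7 and TUB9 took the opposite sign when wild-type replicate 2 was left out, at -0.04 and -0.07.

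TUB6 varied least. It read 10.25, 10.17 and 10.19 in actin2-5 and 10.25, 10.27 and 10.26 in wild type, a range of 0.10 over all 6 arrays. Mutant replicates 2 and 3 lay just under the wild-type range and mutant replicate 1 touched its lower end. The log2 change was -0.06 ± 0.08 (limma adjusted p = 0.794), with a 95% interval of -0.23 to 0.12.

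MAP65-6 was the only measured gene of the 4 groups whose genotypes did not overlap, 1 of 17 (5.88%) against 19.2% of all probe sets. It encodes a microtubule-binding member of the MAP65 family. The family's roles in the phragmoplast and in cortical microtubule bundles are known best from other members. It read 8.06, 8.14 and 8.19 in actin2-5 and 8.34, 8.22 and 8.52 in wild type. The gap between the highest mutant and the lowest wild-type array was small beside the range of 0.30 within wild type. Means were 8.13 ± 0.07 and 8.36 ± 0.15 (SD, n = 3), a log2 change of -0.23 ± 0.10, or 0.853-fold. The unadjusted limma p was 0.0378 and the adjusted p was 0.29, so it was not called.

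An exact two-sided permutation test of 3 against 3 arrays cannot go below 0.1, so separation alone does not reach the threshold. The change of MAP65-6 stayed below 0 in every setting tried, from -0.30 without wild-type replicate 2 to -0.15 without wild-type replicate 3, and was called in none of them. Because its genotypes did not overlap, leaving out arrays could not turn its sign, so the held sign adds nothing to the separation itself. TUA1 and TUB1 shared part of its order of arrays. In all 3 genes, mutant replicate 1 was the lowest of the 6 arrays and wild-type replicates 1 and 3 were the highest. This order was read off the values afterwards, and its share over all probe sets was not counted.

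Marker genes of root tissue were read beside MAP65-6. The root hair expansin genes EXPA7 and EXPA18, which loosen the walls of growing root hairs, fell by 0.86 and 0.95 on the log2 scale (limma adjusted p = 0.00909 and 0.00636). They are the 2 measured of 8 listed root hair markers. Their order of arrays was another one: mutant replicate 3 was lowest, and replicate 1 was the lowest wild-type array (7.28 and 6.83). EXPA7 missed the threshold without actin2-5 replicate 2 or 3 (-0.86 and -0.82; limma adjusted p = 0.0545 and 0.0576). With the 25S signal described below as a covariate, both missed it at -0.87 and -0.95 (limma adjusted p = 0.0769 and 0.062). Both also missed it with mutant replicates 1 and 3 left out together, at -0.85 and -0.94 (limma adjusted p = 0.394 and 0.356). The root markers NAI2 and PYK10, 2 measured of 4 listed, lay on opposite sides of 0, at -0.27 ± 0.11 and 0.09 ± 0.08, with 0 called. Their unadjusted limma p were 0.0292 and 0.264. The genotypes did not overlap in either, as in 19.2% of all probe sets. The part of these root hair and root markers in the values of MAP65-6, TUA1 and TUB1 was not tested.

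The 2 AIP1 genes differed little between genotypes. AT2G01330 read 5.42, 5.59 and 5.59 in actin2-5 and 5.36, 5.30 and 5.67 in wild type. The mutant values fell inside the wild-type range, and the log2 change was 0.09 ± 0.11 (limma adjusted p = 0.767). It was 0.0183 without wild-type replicate 2 and 0.2033 without wild-type replicate 3, the lowest and highest with 1 array left out. AT3G18060 read 9.72, 9.59 and 9.52 in actin2-5 and 9.67, 9.41 and 9.73 in wild type. Here too the wild-type arrays enclosed the mutant ones, and the means were 9.61 and 9.60. The change of 0.01 ± 0.10 (limma adjusted p = 0.983) was the smallest of the 17 genes, and its sign was not stable. Both genes were lowest in wild-type replicate 2 and highest in wild-type replicate 3. At an unadjusted p under 0.05 stood 0 of 2, against 15.3% of all probe sets, which says little with 2 genes.

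**Figure D2:**
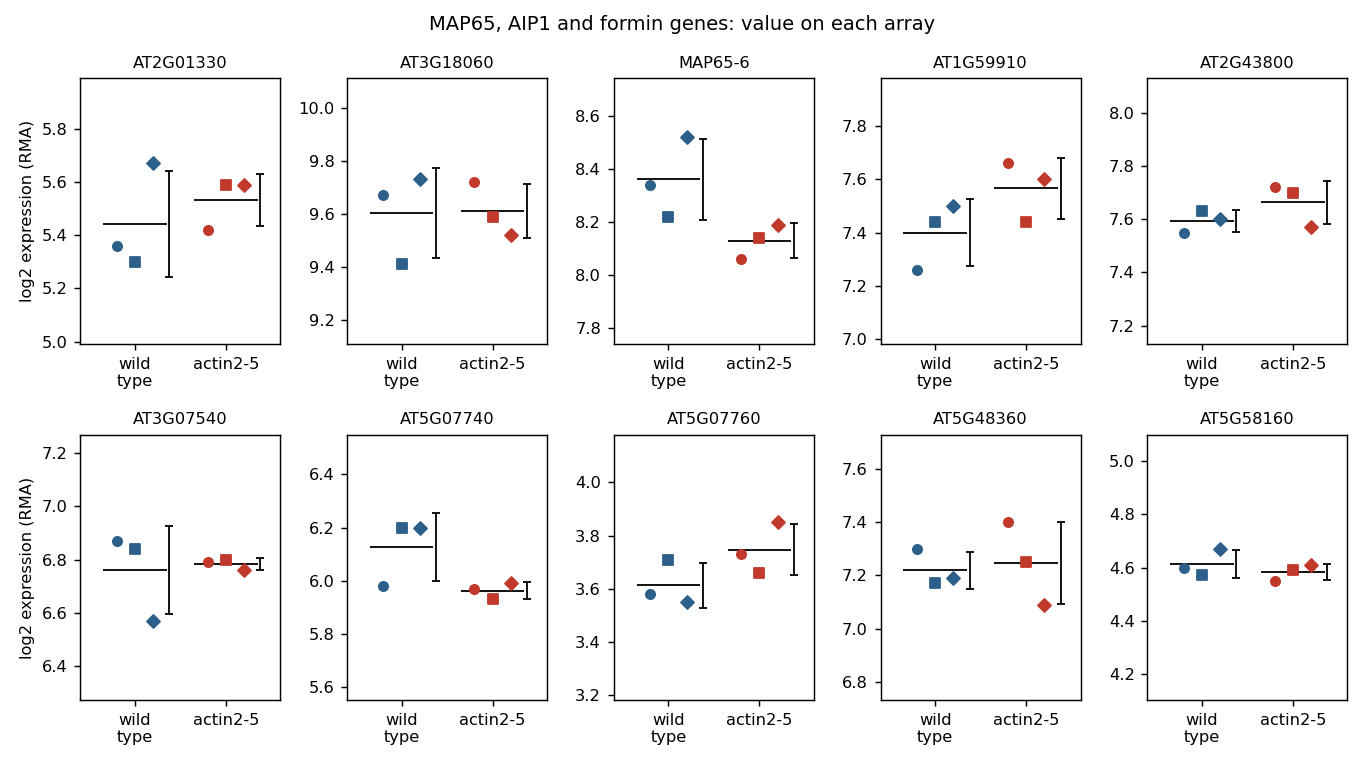
Log2 RMA expression of the 2 AIP1 genes (AT2G01330, AT3G18060), MAP65-6 and 7 formin genes on each array, wild type in blue and actin2-5 in red. Circles, squares and diamonds are replicates 1, 2 and 3, horizontal lines are group means, bars are 1 SD (n = 3), and all panels span the same number of log2 units. Only the MAP65-6 panel shows genotypes that do not overlap, as in 19.2% of all probe sets.

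Of the 7 measured formin genes, 5 lay above and 2 below wild type, with log2 changes from -0.16 to 0.17 and a median of 0.03. None was called by limma, against 3.3% of all probe sets. An unadjusted p under 0.05 was found in 0 of 7, against 15.3% of all probe sets, a count too small to describe the group. The largest difference was that of AT1G59910. It read 7.66, 7.44 and 7.60 in actin2-5 and 7.26, 7.44 and 7.50 in wild type. Mutant replicates 1 and 3 lay above every wild-type array, while mutant replicate 2 equalled wild-type replicate 2. The log2 change was 0.17 ± 0.10, with a 95% interval of -0.05 to 0.38 (limma adjusted p = 0.474). Over the settings the change ran from 0.04, with mutant replicates 1 and 3 left out together, to 0.23 without mutant replicate 2. Mutant replicates 1 and 3 held the higher mutant values, so leaving them out had to lower the change. With the 25S signal as a covariate it was 0.0745, and the part of that signal was not tested.

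AT5G07740 lay lowest against wild type. It read 5.97, 5.93 and 5.99 in actin2-5 and 5.98, 6.20 and 6.20 in wild type. The mutant arrays were tight, with an SD of 0.03, and wild-type replicate 1 sat among them. Its log2 change was -0.16 ± 0.09 (limma adjusted p = 0.437). The next protein-coding gene along chromosome 5 is the formin gene AT5G07760, and 2 further formin loci, AT5G07770 and AT5G07780, follow it without another protein-coding gene between (0 in each interval, RefSeq TAIR10.1).

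AT5G07760 read 3.73, 3.66 and 3.85 in actin2-5 and 3.58, 3.71 and 3.55 in wild type. It was thus on the other side of 0 from its neighbour, at 0.13 ± 0.09 (limma adjusted p = 0.538), and the difference between the 2 neighbours was not tested. At a mean of 3.68 it lay under the lower quartile of every array (4.49 to 4.58), where a missing call says little. AT5G58160, at a mean of 4.60 just above those quartiles, read 4.55, 4.59 and 4.61 in actin2-5 and 4.60, 4.57 and 4.67 in wild type, a change of -0.03 ± 0.08 (limma adjusted p = 0.906).

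The other 3 formins stayed close to wild type. AT2G43800 read 7.72, 7.70 and 7.57 in actin2-5 and 7.55, 7.63 and 7.60 in wild type. Mutant replicates 1 and 2 were the highest arrays and replicate 3 lay within the wild-type range, for a log2 change of 0.07 ± 0.08 (limma adjusted p = 0.756). AT3G07540 read 6.79, 6.80 and 6.76 in actin2-5 and 6.87, 6.84 and 6.57 in wild type. The wild-type arrays spread over 0.30 and the mutant arrays over 0.04. Its change was 0.02 ± 0.10 (limma adjusted p = 0.944). AT5G48360 read 7.40, 7.25 and 7.09 in actin2-5 and 7.30, 7.17 and 7.19 in wild type. The mutant arrays enclosed the wild-type ones, and the change was 0.03 ± 0.10 (limma adjusted p = 0.934).

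**Figure D3:**
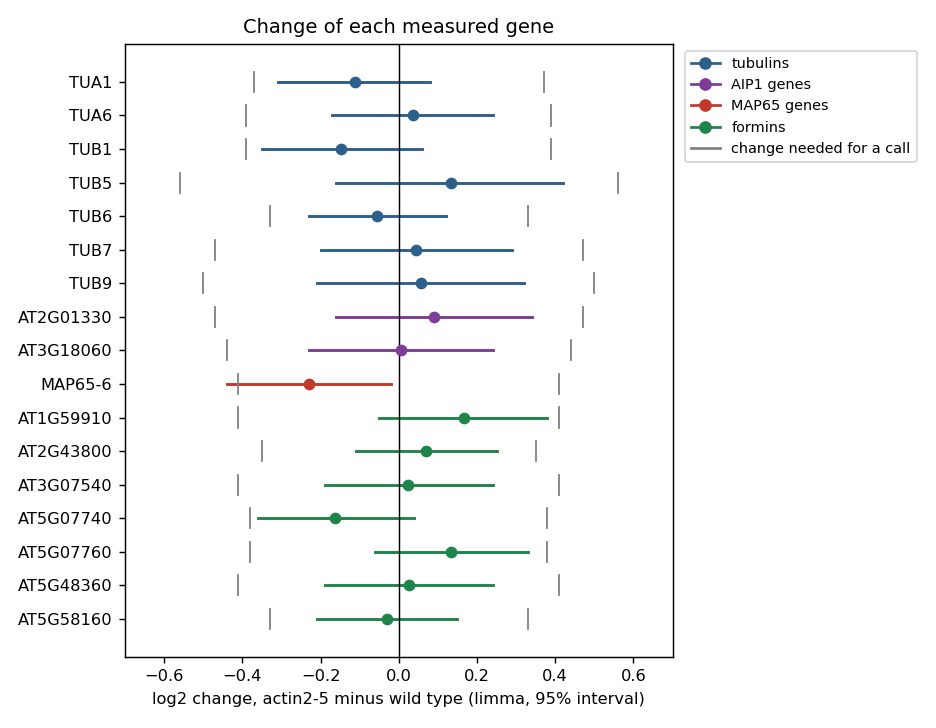
Log2 change of each of the 17 genes, actin2-5 minus wild type, as points with 95% limma intervals, coloured by group; grey ticks mark the change each gene would have needed to be called. No point reaches its grey tick, and MAP65-6, at -0.23, is the only gene whose interval leaves out 0.

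The highest and lowest values of the 17 genes were spread unevenly over the arrays. Wild-type replicate 3 held the highest of the 6 values in 8 of the 17 genes (47.1%) and mutant replicate 1 in 6 (35.3%). Over all probe sets the shares were 24.1% and 14.3%, ties counted for each array. Wild-type replicate 2 was lowest in 5 of the 17 genes (29.4%), TUB5, TUB7, TUB9 and both AIP1 genes, against 19.7% of all probe sets. These counts rest on few genes, and the spread over arrays was not tested. The array's 25S ribosomal RNA control was at 10.63, 7.75 and 9.82 in actin2-5 replicates 1, 2 and 3 and at 8.21, 8.13 and 8.20 in wild type, so mutant replicates 1 and 3 stood apart. With that signal as a covariate 0 of 17 genes were called, as 283 of 22746 probe sets were. Without those 2 arrays it was 0 of 17 and 103 of 22746, so these settings called few probe sets of any kind. Array medians lay between 6.42 and 6.46, and at most 3.50% of values were identical between 2 arrays.

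Other genes of the cytoskeleton were looked up in 6 lists of 68 genes, of which 8 were measured. Limma called 0 of the 8, with 1 at an unadjusted p under 0.05 (12.5%, against 15.3% of all probe sets), and their median log2 change was 0.02. That 1 was CRK, which encodes the ARPC5 subunit of the actin-nucleating ARP2/3 complex. Its means were 7.74 ± 0.09 in the mutant and 7.52 ± 0.07 in wild type (SD, n = 3). The change was 0.22 ± 0.09 (limma adjusted p = 0.246). The genotypes did not overlap, as in 19.2% of all probe sets. PIR121 and BRK1, subunits of the SCAR complex that activates ARP2/3, were at 0.06 ± 0.09 and -0.03 ± 0.10.

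The class XI myosin gene XI-I was at 0.23 ± 0.12 (limma adjusted p = 0.402). SPR1, a small protein at growing microtubule ends, was at 0.07 ± 0.11. The 3 measured genes of the fimbrin family, which bundles actin filaments, were AT5G48460, AT2G04750 and AT5G55400, at -0.13, -0.05 and -0.03. In the lists of further tubulins and of actin monomer binding proteins (profilins and actin-depolymerising factors), 0 genes had a probe set of their own named here.

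Of 14 listed cell division genes 3 were measured and 0 called, against 3.3% of all probe sets. At an unadjusted p under 0.05 stood 1 of the 3, against 15.3% of all probe sets. That gene was AUR1, a mitotic kinase, at 0.26 ± 0.11 (limma adjusted p = 0.303). AUR2, a related kinase, was at 0.21 ± 0.10, and KEU, a membrane fusion factor of the new cell plate, at 0.09 ± 0.10. The pollen actin gene ACT12, 1 measured of 7 pollen markers, was dim in both genotypes, at 4.18 and 4.19. The reference genes AT4G34270, AT2G28390 and PEX4 lay between -0.02 and 0.02.

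**Figure D4:**
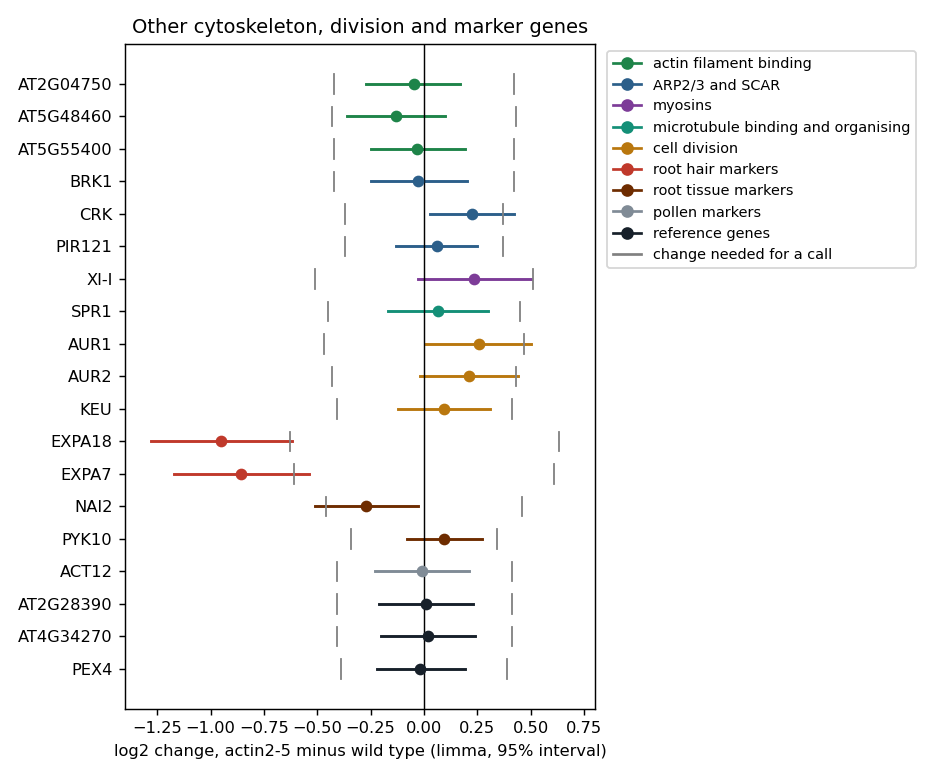
Log2 change of 8 other cytoskeleton genes, 3 cell division genes, 5 marker genes and 3 reference genes, actin2-5 minus wild type, with 95% limma intervals; grey ticks mark the change needed for a call. Only the root hair expansin genes EXPA7 and EXPA18, at -0.86 and -0.95, pass their ticks.

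Over the settings tried, 0 of the 17 genes were called in any. The sign of 10 genes held in all of them and that of 7 turned in at least 1, which gives 17 turns among 267 values. The 10 were TUA1, TUB1, TUB5, TUB6, MAP65-6, AT2G01330, AT1G59910, AT2G43800, AT5G07740 and AT5G07760. The 7 whose sign turned were TUA6, TUB7, TUB9, AT3G18060, AT3G07540, AT5G48360 and AT5G58160, all within 0.06 of 0 as reported. Part of the 267 values could not turn. The filters on dim probe sets, a different variance prior in limma, the replicate block and the kept controls leave each log2 change as reported. A sign that held is no call, and the lowest adjusted p under any setting was that of MAP65-6 without wild-type replicate 2, 0.151 by limma.

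**Figure D5:**
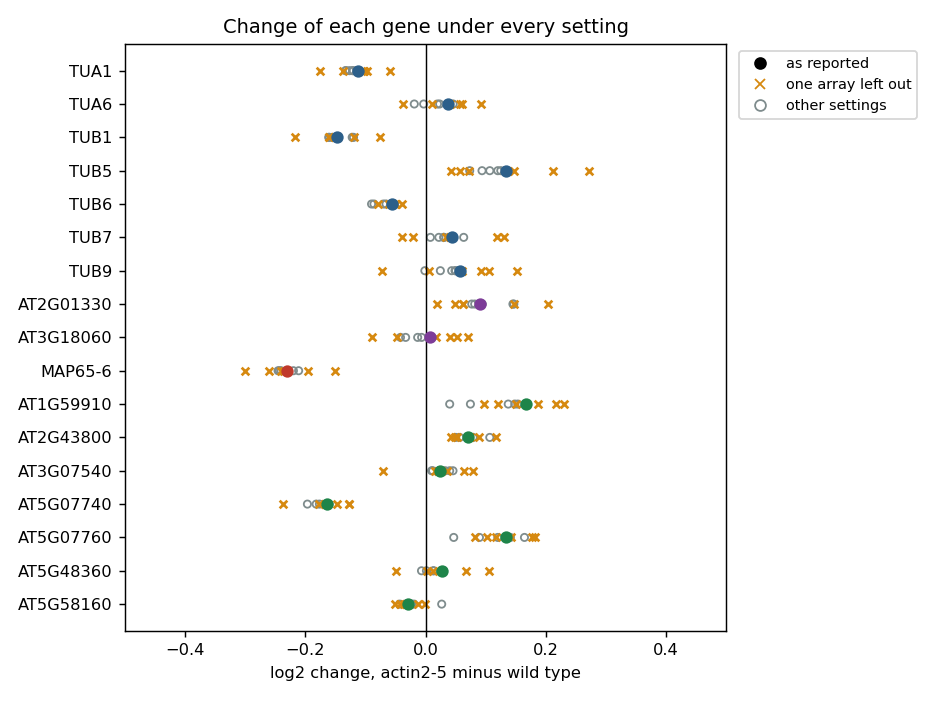
Log2 change of each of the 17 genes, actin2-5 minus wild type: filled points as reported, crosses with 1 array left out, open circles under the other settings. Values of TUA1, TUB1, TUB6, MAP65-6 and AT5G07740 all lie left of 0, while those of AT3G18060 scatter on both sides between -0.09 and 0.07.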

How the data were processed

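Total RNA of 6 samples was measured on 1 ATH1 array each, from 4 µg per the labels' protocols. The deposited table holds 1 log2 value per probe set and array, which the authors made with RMA in the affy package, per the submitters' processing notes. Software versions: not given in the sources used. The values carry 2 decimals and range from 3.08 to 14.15. RMA equalises the arrays, so differences in total RNA are removed. Of 22810 probe sets, 64 controls were kept out of the tests.

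Probe sets were tied to loci by gene identifier, through GEO's platform annotation and RefSeq TAIR10.1, which held all 136 listed loci. The annotation does not list 8730 tested probe sets (38.4%), and 503 have several genes and enter no count. The genotypes were compared by limma (version 3.58.1, R 4.3.3; lmFit, eBayes), two-sided, over all probe sets, with calls at a Benjamini-Hochberg adjusted p under 0.05. The script was tested on simulated data. The members, the lists and the 25S settings were chosen with earlier results of these data known. All measured members are named, and of other lists each called gene and the 3 with the smallest p. The number of arrays limits the precision. Lists were described by counts and medians, with no list test.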

Additional observations from a re-analysis of the deposited data

How the results depend on the processing

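The count of called members was 0 in each of the 4 groups under every setting run, including adjusted p under 0.1 and the counting of shared probe sets, which added 0 members. With the stricter filter on dim probe sets AT2G01330, AT5G07740, AT5G07760 and AT5G58160 were not tested, and with the other AT5G07760 was not. Over all probe sets, 750 calls became 283 with the 25S covariate, 103 without actin2-5 arrays 1 and 3 (which leaves 1 mutant array, assumed to vary like wild type), 323 at adjusted p under 0.01 and 1210 under 0.1, the last 2 by construction. Leaving out 1 array gave 290 (without actin2-5 replicate 2) to 896 probe sets, with 307 without actin2-5 replicate 3, and other settings gave 642 to 999. The formin median ranged from 0.0117 to 0.0817 with 1 array left out. Nothing in the labels pairs the replicates, and deviations of same-numbered arrays correlated at 0.0619, 0.0866 and 0.0833. Every one of the 6 arrays was nonetheless closest to its own number, a hint from the data and not the design. The deviations sum to 0 within each genotype, so these 6 matches are not independent of one another. With the replicate block 907 probe sets and 0 members were called.

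Signs turned for 7 genes, and the cause was not tested. With 1 array left out, TUA6 ranged from -0.0383 to 0.0917, TUB7 from -0.04 to 0.13, TUB9 from -0.0733 to 0.1517, AT3G18060 from -0.09 to 0.07, AT3G07540 from -0.0717 to 0.0783 and AT5G48360 from -0.05 to 0.105. With the 25S covariate TUA6 was at -0.0189, AT3G18060 at -0.0333 and AT5G48360 at -0.0069. Without actin2-5 arrays 1 and 3, TUA6 was at -0.0033 and AT3G18060 at -0.0133. With array weights TUB9 was at -0.0013 and AT3G18060 at -0.0419. AT3G18060 was at -0.0067 after centring, and AT5G58160 at 0.0267 after repeated quantile normalization.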
